A study of Mus musculus with 10 samples.

Results

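The genes described here are 10 scavenger and endocytic receptors of macrophages, chosen by name for this function. The choice was made with earlier results of these data known. They are the class B receptors Cd36 and Scarb1, the class A receptors Msr1 and Marco, the hemoglobin receptor Cd163, the mannose receptor Mrc1, the stabilin Stab1, the endosomal glycoprotein Cd68, the lectin-like receptor Olr1 and the phosphatidylserine receptor Timd4. All 10 were found by symbol among the 55421 genes of the count table. Their transcripts were followed in spleen myeloid-derived suppressor cells (MDSC) and tumor-associated macrophages (TAM) of tumor-bearing mice. The mice were with or without Cre that targets the gene of the phosphatase SHP-2 in the myeloid lineage.

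The data were RNA-seq counts from 10 libraries in 4 groups, all collected on day 15 of growth of an implanted MC17-51 fibrosarcoma in mice aged 8 to 12 weeks. The groups were MDSC of Shp2f/f mice (n = 2), MDSC of Shp2f/fLysMcre mice (n = 2), TAM of Shp2f/f mice (n = 3) and TAM of Shp2f/fLysMcre mice (n = 3). Every animal, controls included, carried the floxed Ptpn11 allele, the gene of SHP-2, and every animal bore a tumor. Shp2f/fLysMcre mice also carried Cre at the lysozyme M locus, which is active in granulocytes as well as macrophages. MDSC are labelled as GR-1+ spleen cells and were enriched with magnetic beads for the granulocytic subset. TAM are labelled as CD11b+F4/80+ tumor cells and were sorted as live CD45+ cells of this type that lacked Ly6G. By the methods TAM and MDSC came from the same mice, but no label says which MDSC and TAM libraries share a mouse, and the tests that span the cell types treat all libraries as independent. The cell types also differ in tissue and in isolation, and these cannot be told apart. The methods do not state whether a library pooled several mice, and each Shp2f/fLysMcre library held RNA of male and female cells, as given below. The p-values therefore measure the spread between libraries, which may be technical.

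Scavenger receptors are not related in structure. They are grouped because they bind modified lipoproteins, polyanions, bacterial surfaces, glycans, spent plasma proteins or dying cells and carry them into the endosome or the lysosome. Tissue macrophages display several at once, and in tumors CD206, the product of Mrc1, and CD163 are widely used to mark macrophages of an alternatively activated type. SHP-2 is a phosphatase that acts downstream of growth factor, cytokine and inhibitory receptors, and in myeloid cells it takes part in the signaling of colony-stimulating factors that drive differentiation.

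The promoter sequences of the members that led the results are shown first, so that the genes can be recognised by their sequence as well as by their values. RefSeq windows on GRCm38.p6 were matched for 8 of the 10 members, the exceptions being Msr1 and Scarb1, and the 250 bases before the annotated start were read. Mrc1 and Stab1 are shown because they differed most between the cell types and had the most similar profiles, Cd163 and Cd36 because they rose most with genotype in TAM, and Olr1 because its fold changes went the opposite way in MDSC and TAM. The fold changes of Msr1, Cd68, Scarb1 and Timd4 also had opposite signs in MDSC and TAM, and their windows are not shown. Capitals mark matches on either strand to GAGGAA, the core bound by the macrophage factor PU.1, to the AP-1 motif TGANTCA, to the CCACCC box of Kruppel-like factors and to the STAT motif TTCNNNGAA.
Mrc1, plus strand, chr2:14229164-14229413: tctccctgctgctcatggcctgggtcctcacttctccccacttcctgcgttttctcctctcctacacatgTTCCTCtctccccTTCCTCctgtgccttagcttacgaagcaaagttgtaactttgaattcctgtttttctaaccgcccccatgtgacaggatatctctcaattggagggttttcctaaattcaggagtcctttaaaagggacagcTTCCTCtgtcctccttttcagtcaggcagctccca
Stab1, minus strand, chr14:31168642-31168891: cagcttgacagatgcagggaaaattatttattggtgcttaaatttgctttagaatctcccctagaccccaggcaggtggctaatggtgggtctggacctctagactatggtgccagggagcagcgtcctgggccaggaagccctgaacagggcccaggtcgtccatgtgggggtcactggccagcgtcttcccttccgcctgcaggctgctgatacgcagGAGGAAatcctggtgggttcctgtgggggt
Cd163, plus strand, chr6:124304401-124304650: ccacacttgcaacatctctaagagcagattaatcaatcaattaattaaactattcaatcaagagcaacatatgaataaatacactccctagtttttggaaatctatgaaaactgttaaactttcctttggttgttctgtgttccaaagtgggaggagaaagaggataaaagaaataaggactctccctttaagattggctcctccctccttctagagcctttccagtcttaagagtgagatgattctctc
Cd36, minus strand, chr5:17835897-17836146: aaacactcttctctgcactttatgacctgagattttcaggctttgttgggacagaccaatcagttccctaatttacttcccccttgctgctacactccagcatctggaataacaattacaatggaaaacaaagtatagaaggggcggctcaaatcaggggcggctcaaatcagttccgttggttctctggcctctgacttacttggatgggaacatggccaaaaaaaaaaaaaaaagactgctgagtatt
Olr1, minus strand, chr6:129507166-129507415: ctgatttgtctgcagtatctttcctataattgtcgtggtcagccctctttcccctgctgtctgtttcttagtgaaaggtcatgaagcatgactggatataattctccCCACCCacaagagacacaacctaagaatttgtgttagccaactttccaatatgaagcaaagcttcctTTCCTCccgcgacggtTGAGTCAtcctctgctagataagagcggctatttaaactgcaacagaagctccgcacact

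GAGGAA occurred in 5 of the 8 member windows and in 23.3% of all 32851 windows of this length. Mrc1 held 3 matches, and Stab1, Marco, Cd68 and Olr1 held 1 each. The CCACCC box was found in 4 member windows (Marco, Cd68, Olr1 and Timd4) against 28.1% of all windows, and TGANTCA in 2 (Cd68 and Olr1) against 6.75%. The STAT motif, found in 7.02% of all windows, was in none of the 8. The windows of Cd36 and Cd163 held no match to any of the 4 motifs. The Cd36 window lies inside the annotated gene, which has further starts upstream, and the Mrc1 and Cd163 windows reach into annotated exons by 22 and 28 bases, those of Mrc1 itself and of the small nucleolar RNA gene Gm25311. These matches describe the letters of the windows and are no evidence of binding.

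Total counts lay between 28844660 and 38222998 per library. The deleted gene checked the labels in TAM, where Ptpn11 was 121 to 125 CPM (reads per gene scaled to the size of the library) in Shp2f/f and 50.9 to 54.2 CPM in Shp2f/fLysMcre. In MDSC it was 99.2 to 113 CPM and 79.6 to 94.8 CPM. The transcript was thus reduced less in MDSC than in TAM, and most of it remained in Shp2f/fLysMcre MDSC. Lyz2, the gene that carries Cre, was 8962 and 9459 CPM in Shp2f/f MDSC, 43.3 and 47.1 CPM in Shp2f/fLysMcre MDSC, 3435 to 3664 CPM in Shp2f/f TAM and 9.37 to 12.6 CPM in Shp2f/fLysMcre TAM. No group carried Cre without the floxed allele. The presence of Cre and the loss of Lyz2 therefore cannot be told apart from the deletion of Ptpn11. Xist, Ddx3y and Ins2 were picked after their values were seen. Within each cell type the lowest Xist value of Shp2f/fLysMcre exceeded the highest of Shp2f/f, and the reverse held for the Y-linked Ddx3y, so genotype and the sex of the mice cannot be told apart. Every Shp2f/fLysMcre library held both transcripts. Xist was 119 and 132 CPM in MDSC and 209 to 371 CPM in TAM, and Ddx3y 22.3 and 27.8 CPM and 38.6 to 44.7 CPM. Each Shp2f/fLysMcre library thus held RNA of male and female cells and cannot be taken as 1 mouse. The Shp2f/f TAM libraries also held both transcripts, with Xist at 4.82 to 18.1 CPM and Ddx3y at 81.8 to 85.5 CPM. The source of Xist there was not tested. In each Shp2f/f MDSC library Xist had 1 count. Ins2 reached 4258 CPM in TAM Shp2f/f replicate 3, against 775 and 488 CPM in replicates 1 and 2 of that group. MDSC Shp2f/fLysMcre replicate 2 stood apart, with 565 CPM summed over 10 fibroblast and tumor mesenchyme markers against 14.5 to 33.2 CPM in the other MDSC libraries, and 20.6 CPM over 9 endothelial markers against 4.36 to 4.62 CPM.

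The labelled cell types were checked against marker lists. The sum over 10 macrophage markers was 3027 to 3135 CPM in Shp2f/f MDSC, 2439 to 2567 CPM in Shp2f/fLysMcre MDSC, 8370 to 8800 CPM in Shp2f/f TAM and 12340.0 to 13460.0 CPM in Shp2f/fLysMcre TAM, and none of the 10 was at 0. The sum over 11 neutrophil markers was 9648 to 9941, 25600.0 to 30960.0, 4277 to 4574 and 2431 to 2561 CPM in the same order. Ly6g, the antigen of the granulocytic subset, was 8.92 to 33.2 CPM in MDSC and at most 0.287 CPM in TAM. The sum over 7 monocyte markers was 7094 to 7158, 5619 to 7044, 2211 to 2302 and 2239 to 2307 CPM in the same order of groups. A transcript of a macrophage receptor in the MDSC libraries can thus come from granulocytes, monocytes or macrophages among them. Fewer cells of a type and less RNA per cell cannot be told apart in either cell type.

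The first comparison placed the 10 receptors in the cell types with SHP-2 intact. Shp2f/f TAM held far more Mrc1 and Stab1 than Shp2f/f MDSC, moderately more Cd163, Msr1, Olr1, Cd36 and Cd68, and less Scarb1 and Marco. Of the 10 members, 9 passed the edgeR quasi-likelihood test at a Benjamini-Hochberg (BH) adjusted p under 0.05, 7 higher and 2 lower (1 of them Marco, whose direction the filter on low counts fixed), while 78.8% of the 15659 genes tested passed, 40.0% higher and 38.8% lower. The median log2 fold change of the members was 1.86, against 0.012 for all genes tested. All 10 had no overlap between the cell types, 8 higher and 2 lower in TAM, as had 86.0% of all genes, 43.7% higher and 42.4% lower.

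Mrc1 (ENSMUSG00000026712, GRCm38 chromosome 2, 14229392 to 14332057, plus strand), which takes up glycoproteins with exposed mannose, was 17.4 and 19.7 CPM in the Shp2f/f MDSC libraries and 2335, 2408 and 2317 CPM in Shp2f/f TAM. The log2 fold change of TAM over MDSC was 6.98 (SE 0.075), or 126.5-fold (edgeR BH-adjusted p = 9.026e-12). Stab1 (ENSMUSG00000042286, chromosome 14, 31139013 to 31168641, minus strand), which clears the matrix protein SPARC and acetylated lipoprotein, followed the same pattern, with 13.8 and 12.3 CPM in MDSC and 1511, 1476 and 1413 CPM in TAM. Its log2 fold change was 6.81 (SE 0.080), or 112-fold (edgeR BH-adjusted p = 9.026e-12). The exons of Stab1 share 112 bases with Nt5dc2 on the opposite strand, and the strand setting of the counting is not stated.

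Cd163 (ENSMUSG00000008845, chromosome 6, 124304656 to 124330527, plus strand), the receptor of haptoglobin-hemoglobin complexes, was 13.6-fold higher in TAM (log2 fold change 3.76, SE 0.059, edgeR BH-adjusted p = 3.406e-11). Msr1, Olr1, Cd36 and Cd68 were 4.84-, 3.81-, 3.45- and 2.89-fold higher (edgeR BH-adjusted p at most 7.886e-07). Scarb1 (ENSMUSG00000037936, chromosome 5, 125277087 to 125341094, minus strand), the receptor that exchanges cholesteryl ester with high-density lipoprotein, went the other way, from 397.5 and 407 CPM in MDSC to 81.5, 83.0 and 80.9 CPM in TAM (log2 fold change -2.30, SE 0.043, edgeR BH-adjusted p = 7.746e-11).

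Marco (ENSMUSG00000026390, chromosome 1, 120474538 to 120505024, minus strand), a class A receptor for bacteria and particles that is typical of splenic marginal zone and alveolar macrophages, had 70 and 90 counts in Shp2f/f MDSC and 3, 6 and 2 counts in Shp2f/f TAM. It passed the filter on low counts through MDSC alone, so a lower value in TAM was to be found, and its log2 fold change of -4.48 is a description. Timd4 (ENSMUSG00000055546, chromosome 11, 46810800 to 46844332, plus strand), a receptor for phosphatidylserine on dying cells that is typical of long-lived resident macrophages, had 10 and 11 counts in MDSC and 12, 15 and 14 in TAM. Its log2 fold change of 0.30 did not pass (95% interval -0.51 to 1.12, edgeR BH-adjusted p = 0.4579). Marco and Timd4 were thus both near the limit of detection in TAM at this depth.

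**Figure D1:**
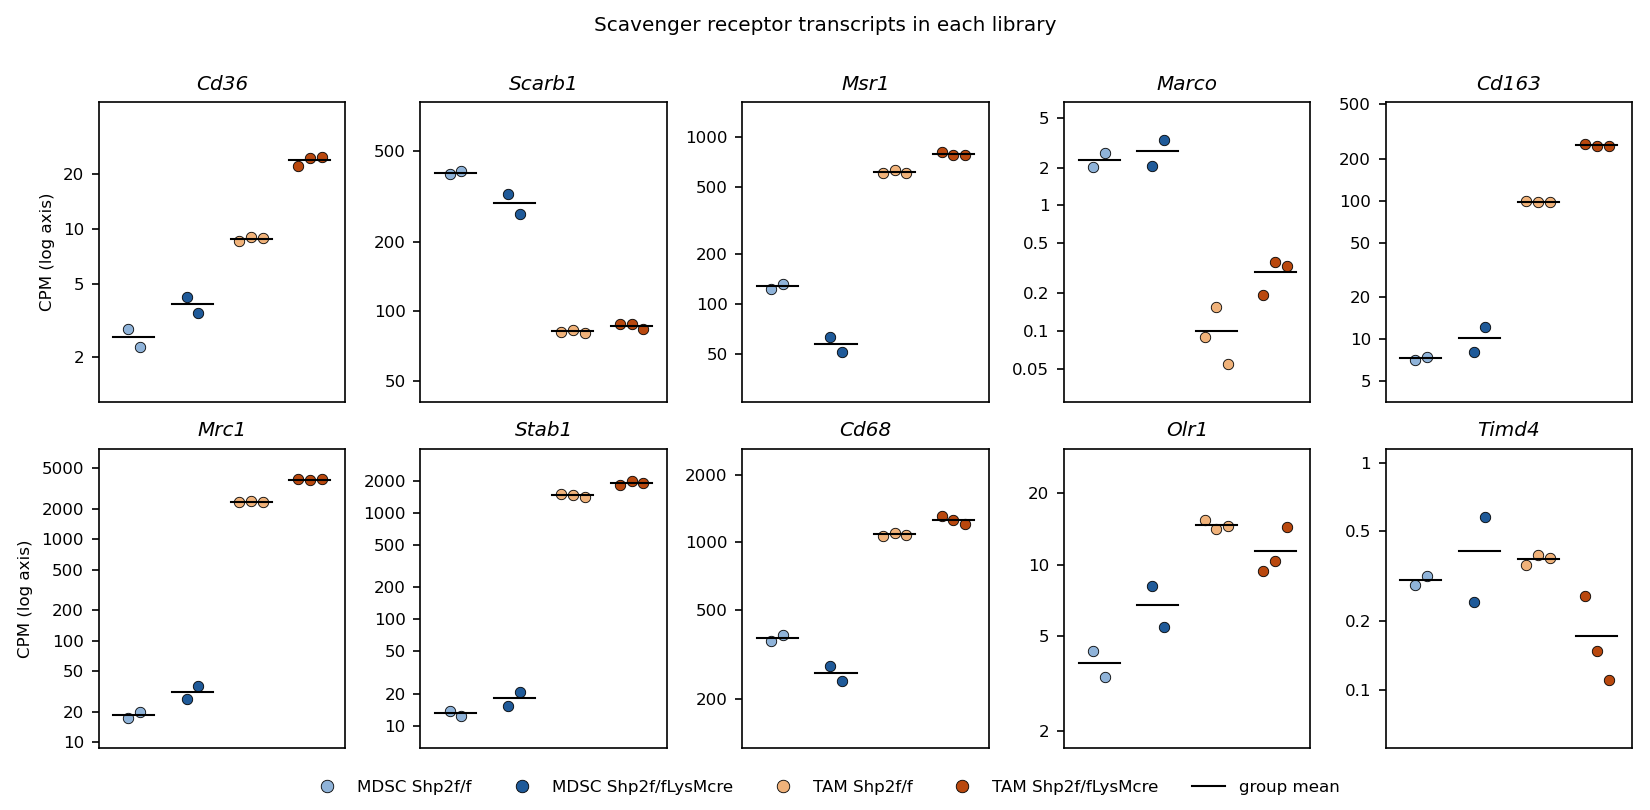
Level of each receptor transcript in each library in CPM on a log axis, with 1 panel per gene, points for libraries and a bar for the group mean (2 libraries per MDSC group, 3 per TAM group). Mrc1 and Stab1 reach at most 35.5 and 20.97 CPM in an MDSC library and are at least 2317 and 1413 CPM in every TAM library, while Scarb1 and Marco are higher in MDSC.

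Levels were then compared between the genes per kilobase of exon, as CPM per kb. In Shp2f/f MDSC the order was Cd68 at 298 ± 13.2 CPM per kb (SD, n = 2), Scarb1 at 47.3 ± 0.757, Msr1 at 20.1 ± 0.863 and Mrc1 at 2.91 ± 0.260, with no overlap between neighbours. Cd163, Stab1, Marco and Olr1 followed between 1.08 and 1.33 CPM per kb, each overlapping the next, and Cd36 and Timd4 came last. In Shp2f/f TAM the order was Cd68 at 862 ± 13.7 CPM per kb (SD, n = 3), Mrc1 at 369 ± 7.58, Stab1 at 143 ± 4.81, Msr1 at 97.3 ± 2.23 and Cd163 at 18.1 ± 0.0971. Scarb1, Olr1, Cd36, Timd4 and Marco came after them, and no neighbours in this group overlapped.

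The pool of receptor transcripts was therefore made up differently. Summed over the 10 genes it was 364 and 385 CPM per kb in Shp2f/f MDSC and 1491 to 1533 in Shp2f/f TAM. Cd68, a protein of late endosomes and lysosomes that is used as a pan-macrophage marker, gave 79.4% and 79.9% of the MDSC pool and 56.9% to 57.7% of the TAM pool. Scarb1 gave 12.4% and 12.9% in MDSC and 0.637% to 0.642% in TAM. Mrc1 gave 0.751% and 0.805% in MDSC and 24.4% to 24.7% in TAM, and Stab1 gave 0.311% and 0.369% against 9.22% to 9.83%.

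**Figure D2:**
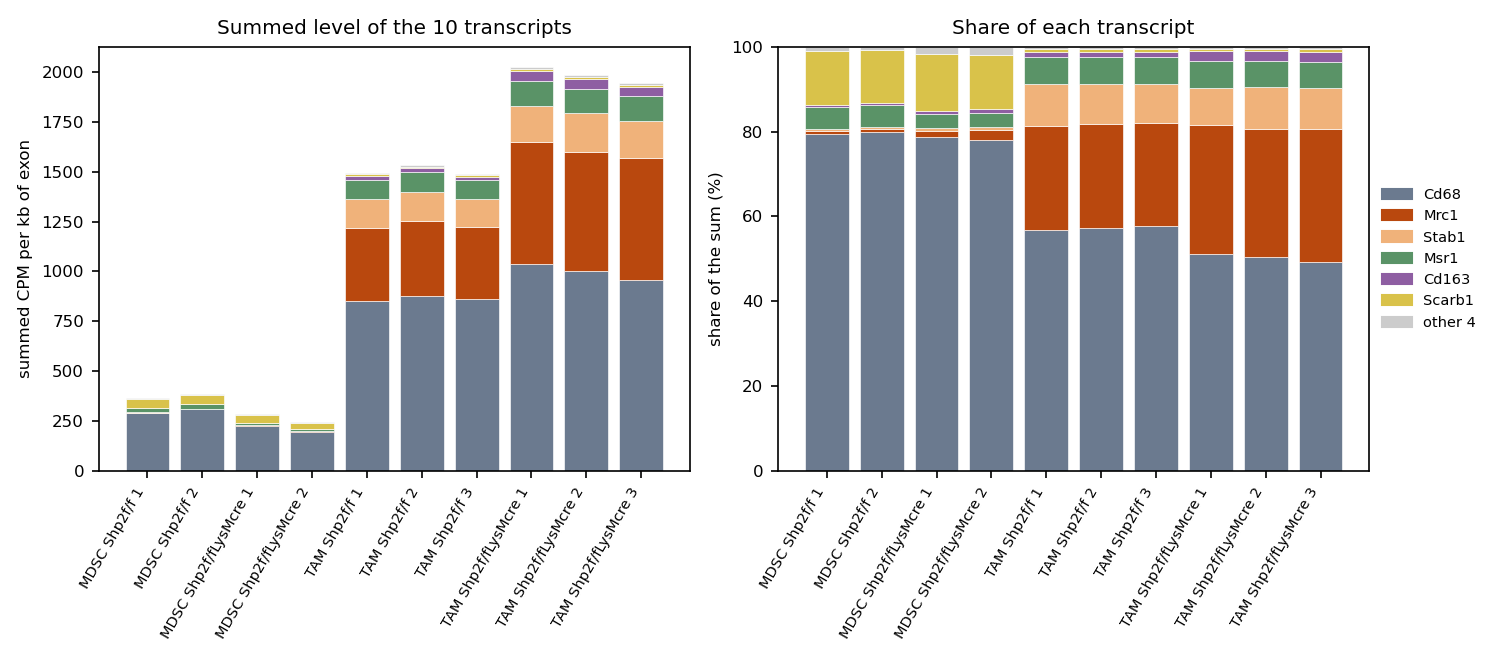
Summed level of the 10 transcripts per library in CPM per kb of exon (left) and the share of that sum held by each transcript in percent (right), with the 4 least abundant genes (Cd36, Marco, Olr1 and Timd4) joined. Cd68 and Scarb1 fill most of each MDSC bar, and Cd68, Mrc1 and Stab1 fill most of each TAM bar.

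The second comparison asked how the receptors of TAM differed between Shp2f/fLysMcre and Shp2f/f mice. Cd36 and Cd163 rose most, to 2.62- and 2.51-fold, Mrc1 rose 1.605-fold, and Stab1, Msr1 and Cd68 rose less. Olr1 and Timd4 were lower, and Scarb1 did not pass. Of 9 members tested, 8 were called, 6 higher and 2 lower in Shp2f/fLysMcre (1 of them Timd4, whose direction the filter on low counts fixed), on a background where 50.2% of 14446 genes tested were called, 23.9% higher and 26.3% lower. On the log2 scale the members had a median change of 0.32 and all genes one of -0.013. Among the 10 members, 8 were higher and 1 lower without overlap between the genotypes, against 30.7% and 27.2% of all genes (57.9% in either direction). Without Shp2f/f replicate 3, the library rich in Ins2, all 10 members were tested and 7 were called, and Timd4 was the one lost. In that fit 43.7% of 14618 genes tested were called, against 50.2% with all TAM libraries.

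Of the class B receptors, Cd36 (ENSMUSG00000002944, chromosome 5, 17781690 to 17888801, minus strand), which binds oxidized lipoprotein and takes up long-chain fatty acids, was 8.64, 9.04 and 8.92 CPM in the Shp2f/f TAM libraries and 22.2, 24.4 and 24.8 CPM in Shp2f/fLysMcre TAM. Every Shp2f/fLysMcre library exceeded every control. The log2 fold change was 1.39 (SE 0.063, edgeR BH-adjusted p = 3.667e-08), and 2.59% of the genes tested had a larger absolute change. Cd36 is also a gene of adipocytes, platelets and endothelium. The sum over 7 adipocyte markers was at most 0.178 CPM in any TAM library, with Plin1, Lep and Adrb3 at 0 in all 6. The sum over 9 endothelial markers was 42.0 to 43.5 CPM in Shp2f/f TAM and 53.9 to 60.2 CPM in Shp2f/fLysMcre TAM. The sum over 8 platelet markers was 912 to 965 and 1476 to 1640.0 CPM, nearly all of it Pf4 at 759 to 805.5 and 1154 to 1301 CPM and Ppbp at 145.5 to 158 and 318 to 336 CPM. Of the 8 platelet markers 4 were tested and 3 were called, all of them higher, with a median log2 fold change of 0.85. The platelet receptor genes Gp9, Gp1ba, Gp1bb and Gp6 had at most 1 count in any TAM library. Most of the endothelial sum was Kdr, at 34.6 to 36.8 and 46.3 to 49.7 CPM. Of the 9 endothelial markers 5 were tested and 2 were called, both higher, with a median log2 fold change of 0.36. Among all genes tested 23.9% were called higher. The endothelial genes Emcn, Robo4 and Cldn5 had at most 5 counts in any TAM library. TAM were sorted as CD45+ cells. The sum over 10 fibroblast and tumor mesenchyme markers was 299 to 310 CPM in Shp2f/f TAM and 280 to 297 CPM in Shp2f/fLysMcre TAM. The part of endothelial cells, platelets and other cells in the Cd36 values was not tested.

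Scarb1 was 81.5, 83.0 and 80.9 CPM in Shp2f/f TAM and 87.8, 88.4 and 83.5 CPM in Shp2f/fLysMcre TAM. Its log2 fold change of 0.047 (95% interval -0.033 to 0.126) did not pass the test (edgeR BH-adjusted p = 0.3135), and with scaling by total counts it was -0.052. This interval lies below that of Cd36, the other class B receptor, at 1.25 to 1.53.

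Of the class A receptors, Msr1 (ENSMUSG00000025044, chromosome 8, 39581685 to 39642673, minus strand), which binds acetylated lipoprotein and bacterial lipids, was 612, 633 and 606.5 CPM in Shp2f/f TAM and 810.4, 778 and 781 CPM in Shp2f/fLysMcre TAM. The rise was 1.25-fold (log2 fold change 0.32, SE 0.035, edgeR BH-adjusted p = 2.1e-05), although 38.3% of the genes tested had a larger absolute change. Marco had 3, 6 and 2 counts in Shp2f/f TAM and 6, 12 and 9 counts in Shp2f/fLysMcre TAM, too few to be tested.

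Cd163 was 99.2, 98.9 and 98.1 CPM in Shp2f/f TAM and 260, 252 and 251 CPM in Shp2f/fLysMcre TAM. All 3 Shp2f/fLysMcre values exceeded the controls, with an SD of at most 4.84 CPM in either genotype. The log2 fold change was 1.33 (SE 0.036, edgeR BH-adjusted p = 2.196e-09). Only 2.87% of the genes tested had a larger absolute change.

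Mrc1 rose from 2335, 2408 and 2317 CPM to 3910.0, 3808 and 3894 CPM. The log2 fold change was 0.68 (SE 0.027, edgeR BH-adjusted p = 1.23e-08), and 12.4% of the genes tested had a larger absolute change. Stab1 rose from 1511, 1476 and 1413 CPM to 1841, 2001 and 1928 CPM (log2 fold change 0.35, SE 0.038, edgeR BH-adjusted p = 1.529e-05). For both genes every Shp2f/fLysMcre library exceeded every control, and the intervals of their log2 fold changes, 0.62 to 0.74 for Mrc1 and 0.27 to 0.44 for Stab1, did not overlap.

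Cd68 (ENSMUSG00000018774, chromosome 11, 69664213 to 69666153, minus strand) was 1068, 1102 and 1081 CPM in Shp2f/f TAM and 1304, 1261 and 1202 CPM in Shp2f/fLysMcre TAM. The rise was 1.13-fold (log2 fold change 0.18, SE 0.035, edgeR BH-adjusted p = 0.001533), and with scaling by total counts the log2 fold change was 0.078 (edgeR BH-adjusted p = 0.0442).

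Olr1 (ENSMUSG00000030162, chromosome 6, 129485244 to 129507165, minus strand), the receptor of oxidized low-density lipoprotein also known as LOX-1, was 15.4, 14.2 and 14.6 CPM in Shp2f/f TAM and 9.37, 10.4 and 14.5 CPM in Shp2f/fLysMcre TAM. Replicate 3 of Shp2f/fLysMcre lay within the range of the controls. The log2 fold change was -0.41 (SE 0.13, edgeR BH-adjusted p = 0.02088). It was -0.61 without Shp2f/fLysMcre replicate 3, and the call was lost without Shp2f/f replicate 1 or Shp2f/fLysMcre replicate 1 or 2 (edgeR BH-adjusted p = 0.0706, 0.0711 and 0.0976), and in one fit of all 10 libraries (edgeR BH-adjusted p = 0.172).

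Timd4 had 12, 15 and 14 counts in Shp2f/f TAM and 8, 5 and 3 counts in Shp2f/fLysMcre TAM. It passed the filter only through the group where it was higher, so a lower value in the other group was to be found. Its log2 fold change was -1.13 (SE 0.39, edgeR BH-adjusted p = 0.03247), and the call was lost in DESeq2 (BH-adjusted p = 0.173) and without any 1 of 5 libraries, all but Shp2f/fLysMcre replicate 1 (edgeR BH-adjusted p between 0.0691 and 0.122).

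Markers of cell types moved beside these changes in TAM, where 23.9% of all genes tested were called higher and 26.3% lower. All 10 macrophage markers rose, with a median log2 fold change of 0.65, which lies below that of Cd36 and Cd163, near that of Mrc1 and above those of Stab1, Msr1 and Cd68. Of 8 splenic red pulp and marginal zone macrophage markers tested, 7 were called, all of them higher, with a median of 0.87. All 7 T cell markers fell, from a sum of 11.1 to 12.4 CPM to 4.85 to 5.88 CPM. Of 10 neutrophil markers tested, 5 rose, S100a8, S100a9, Csf3r, Cxcr2 and Mmp8. The sum of the list was lower because 1 gene carried it, Mmp9, which fell from 3977 to 4257 CPM in Shp2f/f to 1944 to 2051 CPM in Shp2f/fLysMcre. The part of the composition of the sorted cells in the changes of the receptors was not tested.

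**Figure D3:**
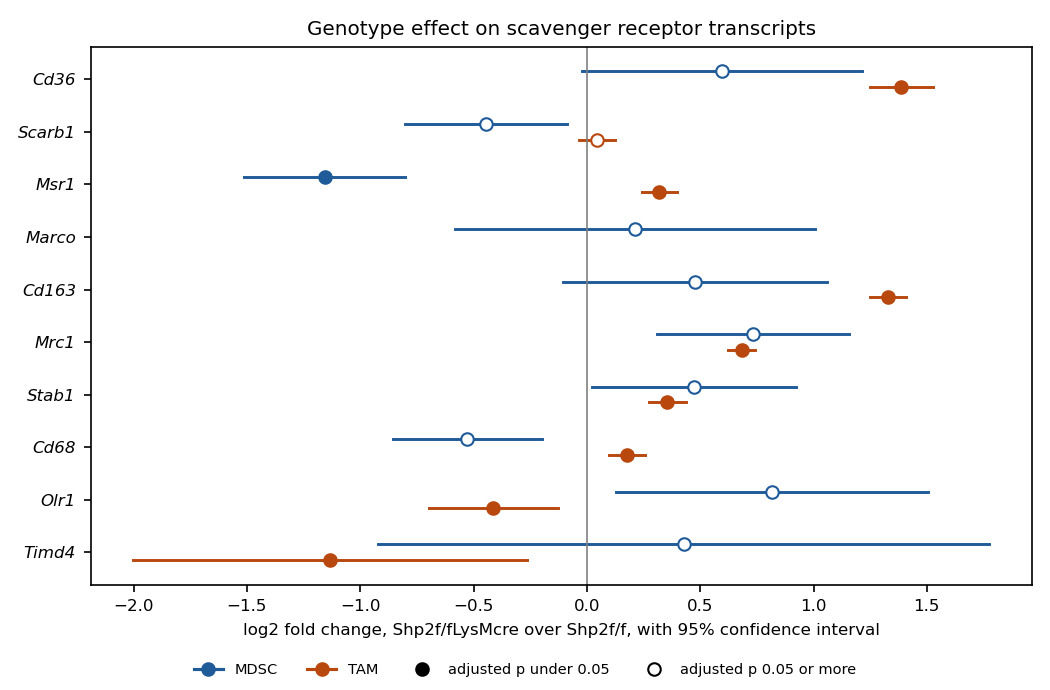
Log2 fold change of each receptor transcript in Shp2f/fLysMcre over Shp2f/f, with its 95% interval, in TAM and in MDSC, filled points being BH-adjusted p under 0.05 in the edgeR test. In TAM Cd36 and Cd163 lie furthest to the right at 1.39 and 1.33, in MDSC Msr1 lies furthest to the left at -1.16, and Marco was not tested in TAM.

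The third comparison asked the same in spleen MDSC. Msr1 fell to 0.448 of its control level, and it was the only member called, on a background where 4.28% of 14806 genes tested were called, 3.76% higher and 0.52% lower. The other 9 members had log2 fold changes between -0.53 and 0.82 that did not pass in the edgeR test. The median of the 10 was 0.45, against -0.015 for all genes tested. Without overlap between the genotypes, 5 members were higher and 3 lower, against 24.9% and 24.1% of all genes (48.9% in either direction). The spread between MDSC libraries was larger than between TAM libraries, with a biological coefficient of variation of 0.189 against 0.0595.

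Msr1 was 123 and 131 CPM in Shp2f/f MDSC and 62.9 and 51.6 CPM in Shp2f/fLysMcre MDSC. The log2 fold change was -1.16 (SE 0.14, edgeR BH-adjusted p = 0.02083). It stayed between -1.35 and -1.01 when any 1 library was left out, but without Shp2f/f replicate 1 or 2, which leaves a single control, the adjusted p of the edgeR test was 0.59 or 0.673 and 1 gene of all was called, and without a filter on low counts it was 0.0529. Cd68 and Scarb1 had values in the same direction. Cd68 was 363 and 387 CPM in Shp2f/f MDSC and 280.0 and 242 CPM in Shp2f/fLysMcre MDSC (log2 fold change -0.53, 95% interval -0.86 to -0.20, edgeR BH-adjusted p = 0.1028). Scarb1 was 397.5 and 407 CPM against 325 and 267 CPM (log2 fold change -0.45, 95% interval -0.80 to -0.089, edgeR BH-adjusted p = 0.1753).

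Mrc1, Stab1 and Cd163 had higher values in Shp2f/fLysMcre MDSC, at levels far below those of TAM, and these differences did not pass. Mrc1 was 17.4 and 19.7 CPM in Shp2f/f and 26.6 and 35.5 CPM in Shp2f/fLysMcre (log2 fold change 0.73, 95% interval 0.31 to 1.16, edgeR BH-adjusted p = 0.08708). Stab1 was 13.8 and 12.3 against 15.4 and 20.97 CPM, with an edgeR BH-adjusted p of 0.2385. Cd163 was 7.03 and 7.47 against 7.99 and 12.3 CPM, with an edgeR BH-adjusted p of 0.3529. For all 3 genes, no control reached the lower of the Shp2f/fLysMcre values, and Shp2f/fLysMcre replicate 2 gave the highest one. This is the library with the fibroblast and endothelial transcripts, and without it the log2 fold changes of Mrc1, Stab1 and Cd163 were 0.52, 0.24 and 0.14. With that library left out, 5 members were called on a background of 2729 genes, 18.0% of those tested, Cd36, Mrc1 and Olr1 higher and Msr1 and Cd68 lower, the single remaining Shp2f/fLysMcre library being taken to vary like the controls. DESeq2 called Mrc1 (BH-adjusted p = 0.0105) and Cd68 (BH-adjusted p = 0.00642) beside Msr1, on a background of 8.48% called.

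Cd36 was 2.85 and 2.28 CPM in Shp2f/f MDSC and 4.28 and 3.50 CPM in Shp2f/fLysMcre MDSC (log2 fold change 0.60, 95% interval -0.020 to 1.22, edgeR BH-adjusted p = 0.2746). Olr1 was 4.33 and 3.38 against 8.15 and 5.45 CPM (log2 fold change 0.82, 95% interval 0.13 to 1.503, edgeR BH-adjusted p = 0.1941). For Cd36 and Olr1 the higher value was that of replicate 1, not that of replicate 2 with its 565 CPM of fibroblast markers. Marco at 2.03 and 2.60 against 2.06 and 3.33 CPM, and Timd4 at 10 and 11 against 9 and 23 counts, overlapped between the genotypes, and their log2 fold changes went from 0.21 and 0.43 to -0.17 and -0.31 when Shp2f/fLysMcre replicate 2 was left out.

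Markers of macrophages in these libraries moved less uniformly than in TAM. The share of all genes called in MDSC was 3.76% higher and 0.52% lower. The median log2 fold change of the 10 macrophage markers was -0.18, and 1 was called, which fell. Values within the list went both ways. Adgre1, the F4/80 gene, was 383 and 378 CPM in Shp2f/f and 286 and 209 CPM in Shp2f/fLysMcre. Itgam was 386 and 395 CPM against 407 and 445 CPM, and C1qa 24.9 and 35.9 CPM against 30.0 and 58.1 CPM. Of 9 splenic macrophage markers tested 1 was called, which rose, with a median of 0.42. Of 11 neutrophil markers 6 were called, all of them higher. None of the 7 monocyte markers was called, with a median of -0.085. The part of these cell types in the receptor values was not tested.

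The fourth comparison tested whether the genotype effect differed between TAM and MDSC. In the edgeR interaction over all 10 libraries, 6 of 10 members were called, 5 whose log2 effect was the higher in TAM and 1, Olr1, whose effect was the lower, on a background of 24.9% of 16581 genes, 12.2% more positive and 12.7% more negative. Among the called members the largest difference was that of Msr1, whose log2 fold change was higher in TAM by 1.51 (SE 0.11, edgeR BH-adjusted p = 2.695e-05). It rose in TAM and fell in MDSC.

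Cd68 also had values of opposite sign, and its effect was higher in TAM by 0.73 (SE 0.10, edgeR BH-adjusted p = 0.0008365). The effects of Cd163 and Cd36 were higher in TAM by 0.88 (SE 0.19, edgeR BH-adjusted p = 0.009496) and 0.82 (SE 0.17, edgeR BH-adjusted p = 0.007651), and that of Scarb1 by 0.52 (SE 0.11, edgeR BH-adjusted p = 0.007837). The effect of Olr1 was lower in TAM by a log2 value of -1.19 (SE 0.31, edgeR BH-adjusted p = 0.01934). The test takes 1 spread for both cell types, although MDSC libraries varied more. With weights for each cell type (limma voom, an alternative added after seeing the data), Cd36 and Olr1 were no longer called (BH-adjusted p = 0.0789 and 0.0948). With same-numbered MDSC and TAM libraries taken as a pair, also added after seeing the data, Msr1 and Cd68 were the 2 members called (edgeR BH-adjusted p = 0.0175 and 0.0393), with 970 genes in all.

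Mrc1 and Stab1 did not show such a difference. The effect of Mrc1 in TAM minus that in MDSC was -0.024 (95% interval -0.37 to 0.32, edgeR BH-adjusted p = 0.9429), and that of Stab1 was -0.090 (95% interval -0.46 to 0.28, edgeR BH-adjusted p = 0.7393). Marco (1.29, 95% interval -0.017 to 2.60) and Timd4 (-1.54, 95% interval -3.05 to -0.025) did not pass over all genes (edgeR BH-adjusted p = 0.1384 and 0.1276). Both rest on fewer than 20 counts in every TAM library.

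The make-up of the receptor pool changed with genotype in both cell types. In TAM the sum of the 10 genes was 1491 to 1533 CPM per kb in Shp2f/f and 1945 to 2025 in Shp2f/fLysMcre. The share of Mrc1 went from 24.4% to 24.7% in Shp2f/f to 30.1% to 31.4% in Shp2f/fLysMcre, that of Cd163 from 1.18% to 1.22% to 2.32% to 2.36%, and that of Cd68 from 56.9% to 57.7% to 49.2% to 51.3%. None of these ranges overlapped, while the shares of Stab1, 9.22% to 9.83% and 8.84% to 9.80%, did. In MDSC the sum was 364 and 385 CPM per kb in Shp2f/f and 283 and 246 in Shp2f/fLysMcre. The share of Msr1 was 5.35% and 5.38% in Shp2f/f and 3.30% and 3.51% in Shp2f/fLysMcre there, and Scarb1 held 12.4% and 12.9% against 12.7% and 13.5%.

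Similarity of profiles was measured as the root mean square (RMS) difference of log2 CPM, centred for each gene, over the 10 libraries, for each member against the 8847 genes that averaged 10 CPM or more. The measure is a description, since all points share libraries and the cell type sets most of it. Mrc1 and Stab1 were each other's nearest gene, at 0.203, where the median gene lay 3.43 from Mrc1 and 3.31 from Stab1. Their next neighbours were Cxcl16 at 0.268 for Mrc1, itself a scavenger receptor for oxidized lipoprotein, and Zmynd15 at 0.205 for Stab1. Scarb1 was nearest to Emilin1 (0.0489) and Abi3 (0.0808), and Cd68 to Slc12a7 (0.0566) and P4ha1 (0.0793).

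Msr1 was nearest to Cttnbp2nl (0.121) and Tmem37 (0.201). Cd163 was nearest to Hpgds (0.253), the hematopoietic prostaglandin D synthase, and Npl (0.316), and Cd36 to P2ry14 (0.22), a receptor for UDP-sugars, and Pfkfb3 (0.236), a regulator of glycolysis. Olr1 was nearest to Cdk5rap2 (0.158) and Zeb1 (0.201). Marco at 0.362 from Fam117a and Timd4 at 0.279 from S100a4 had few counts. The class B receptors Cd36 and Scarb1 were 2.16 apart and the class A receptors Msr1 and Marco 3.24 apart, so members of 1 structural class did not have the closest profiles.

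The receptors were then set beside 5 lists of related genes, whose counts of calls are to be read against the shares of all genes, 23.9% higher and 26.3% lower in TAM and 3.76% higher and 0.52% lower in MDSC. In TAM the list of other scavenger receptors was split, with 5 of 16 tested genes higher and 6 lower and a median log2 fold change of -0.14. Colec12, a class A receptor for carbohydrates and oxidized lipoprotein, rose from 7.45 ± 0.581 to 15.7 ± 1.21 CPM (SD, n = 3 each, log2 fold change 1.04, edgeR BH-adjusted p = 1.346e-06). Cxcl16 rose by a log2 fold change of 0.42 and Scarb2, the lysosomal receptor that carries glucocerebrosidase, by 0.38 (edgeR BH-adjusted p at most 1.735e-05). In MDSC 1 of 13 tested genes was called, Ly75, the dendritic cell receptor DEC-205, at 7.21 ± 1.22 and 29.4 ± 12.1 CPM (SD, n = 2 each, log2 fold change 2.02, edgeR BH-adjusted p = 0.03425).

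Genes for the uptake of apoptotic cells were also mixed in TAM, with 8 of 20 higher and 4 lower and a median of 0.068, which total-count scaling moved to -0.030. The receptor kinase gene Mertk rose from 114 ± 4.72 to 190 ± 9.71 CPM and its bridging ligand Gas6 from 73.1 ± 0.821 to 127 ± 6.72 CPM, while the related kinase Axl fell from 157 ± 3.36 to 119 ± 3.82 CPM (SD, n = 3 each, edgeR BH-adjusted p at most 3.34e-06). The integrin genes Itgav and Itgb3, whose product binds the bridging protein MFG-E8, had log2 fold changes of -0.72 and -1.01 (edgeR BH-adjusted p at most 2.557e-07), and Cd300a rose by 0.78. In MDSC 1 of 18 was called, Itgb3, which rose from 7.84 ± 0.239 to 15.4 ± 2.26 CPM (SD, n = 2 each, edgeR BH-adjusted p = 0.03807).

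Lipid and sterol handling genes, which process what Cd36, Msr1 and Olr1 take in, were higher in TAM for 13 of 18 and lower for 3, with a median of 0.34. Apoe, the apolipoprotein that carries cholesterol out of macrophages, rose from 3360.0 ± 119 to 6934 ± 673 CPM, the lipid droplet coat gene Plin2 from 557 ± 7.06 to 1004 ± 70.6 CPM, and the lysosomal acid lipase gene Lipa from 93.2 ± 3.78 to 165 ± 1.65 CPM (SD, n = 3 each, edgeR BH-adjusted p at most 1.834e-07). Lpl, the secreted lipoprotein lipase, fell from 264 ± 13.6 to 150 ± 0.756 CPM and Acsl1, which activates fatty acids, from 112 ± 0.579 to 87.1 ± 1.07 CPM. In MDSC 1 of 16 was called, Dgat1, which makes triglyceride, at 61.6 ± 1.64 and 113 ± 20.7 CPM (SD, n = 2 each, edgeR BH-adjusted p = 0.04206).

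Heme and iron handling genes, which act after Cd163 has taken in hemoglobin, were higher in TAM for 9 of 11 and lower for 1, with a median of 0.52. The heme oxygenase gene Hmox1 rose from 341 ± 5.27 to 906 ± 66.1 CPM and the iron exporter gene Slc40a1 from 11.1 ± 0.696 to 34.6 ± 1.23 CPM (SD, n = 3 each), with log2 fold changes of 1.37 and 1.61 (edgeR BH-adjusted p = 8.261e-09 for both). Slc48a1, which moves heme out of the endolysosome, rose by 0.70, and Tfrc, the transferrin receptor, fell from 407 ± 21.2 to 181 ± 3.35 CPM. In MDSC 2 of 11 rose, Slc40a1 from 61.7 ± 2.62 to 126 ± 1.26 CPM and Tfrc from 83.6 ± 7.87 to 161 ± 20.6 CPM (SD, n = 2 each, edgeR BH-adjusted p = 0.01832 and 0.03425). The MDSC libraries also held erythroid transcripts, at 275 to 297 CPM over 9 markers in Shp2f/f and 604.5 to 717 CPM in Shp2f/fLysMcre, whose part in these iron genes was not tested.

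Transcription factors known to act on scavenger receptor genes were higher in TAM for 12 of 14, with a median of 0.47, and the other two did not pass. Spic, the factor of heme-handling macrophages, rose from 7.42 ± 0.201 to 23.8 ± 0.784 CPM and Pparg, which drives Cd36 in macrophages, from 8.28 ± 0.460 to 19.1 ± 0.831 CPM (SD, n = 3 each, edgeR BH-adjusted p at most 1.834e-07). Spi1, the gene of PU.1, was at a log2 fold change of 0.040 (edgeR BH-adjusted p = 0.4717). Mertk is also among the macrophage markers, and Spic and Slc40a1 among the splenic macrophage markers, so these lists and the marker lists are not separate.

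**Figure D4:**
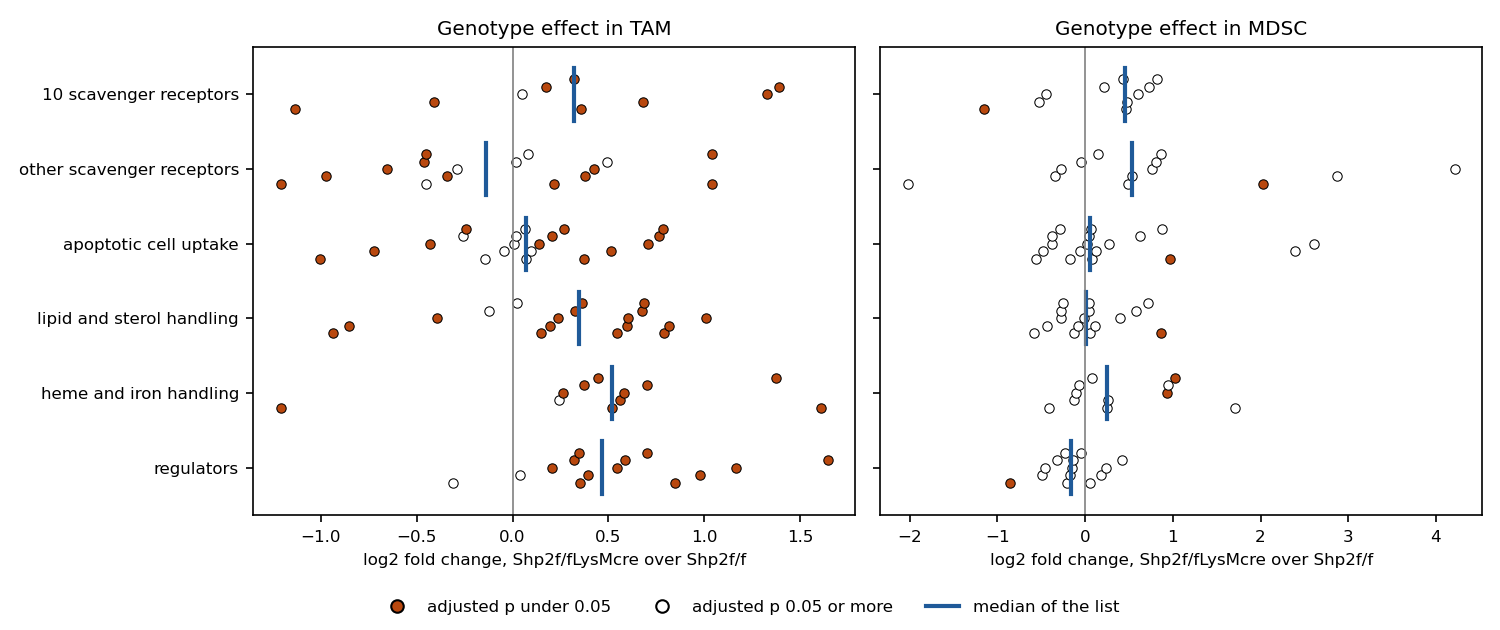
Log2 fold change in Shp2f/fLysMcre over Shp2f/f of the tested genes of the 10 receptors and of 5 related lists, in TAM (left) and MDSC (right), filled points being BH-adjusted p under 0.05 in the edgeR test and the line the median of the list. In TAM the heme and iron genes, the regulators and the lipid genes have medians of 0.52, 0.47 and 0.34 and the other scavenger receptors -0.14, and in MDSC few points are filled.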

How the data were processed

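Poly(A) RNA of the 10 samples was made into stranded libraries and sequenced as paired 42-nt reads. The authors trimmed reads with Cutadapt 2.5, aligned them to GRCm38 with STAR 2.7.3a and counted them over the genes of Ensembl 98 with featureCounts (Subread 1.6.2). The values used here are the deposited raw counts, whole numbers of reads per gene that are not normalized. The strand setting and the treatment of reads with several matches are not given in the sources used here. The deposited DESeq2-normalized values were not used.

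Symbols, coordinates and exon lengths came from GENCODE M21 (GRCm38), which matched 99.67% of identifiers, and 24391 genes had no counts. Groups and replicate numbers came from the sample titles. The test was that of edgeR 4.0.16 under R 4.3.3 (filterByExpr with a minimum count of 10, TMM scaling, quasi-likelihood F test, Benjamini-Hochberg adjustment over all genes tested, threshold 0.05), for genotype within each cell type, for the interaction over all 10 libraries and for TAM against MDSC in Shp2f/f. Levels are CPM scaled by TMM over all 10 libraries, and fold changes come from each comparison's own fit. Libraries held 28844660 to 38222998 counts. The scripts were tested on simulated data.

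Named genes were all 10 members, Ptpn11 and Lyz2, the 2 genes nearest to each member, and from each related list at most 3 called genes per direction that averaged 10 CPM or more, except for results that are not reported here. The members and lists were chosen with earlier results of these data known. Spi1, Xist, Ddx3y, Ins2 and single genes of the marker lists were named outside this rule, after their values were seen. Alternatives were DESeq2 1.42.0, other scalings and filters, removal of the 20 most abundant genes, a replicate block, one fit of all 10 libraries, each library left out, and limma 3.58.1 voom. The replicate numbers were not taken to pair the genotypes. Same-numbered TAM libraries had correlations of -0.145, 0.0898 and 0.015 between their deviations from the group means, and same-numbered MDSC libraries 0.276. With so few libraries these values cannot decide whether the numbers mark a pairing.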

Additional observations from a re-analysis of the deposited data

Results flagged for a closer look

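For 6 of the 10 receptors the genotype effect differed between TAM and MDSC by the interaction test (edgeR quasi-likelihood over all 10 libraries, BH-adjusted p under 0.05, a threshold that 24.9% of all genes passed), and they are listed here for that reason. Of these 6, Msr1 had the largest difference, 1.51 on the log2 scale, being 0.32 in TAM and -1.16 in MDSC, each called in its own cell type. Cd163 differed by 0.88 (1.33 in TAM, 0.48 in MDSC), Cd36 by 0.82 (1.39 and 0.60), Cd68 by 0.73 (0.18 and -0.53) and Scarb1 by 0.52 (0.047 and -0.45). Olr1 was the exception in sign, with a difference of -1.19 (-0.41 in TAM and 0.82 in MDSC). Msr1 and Cd68 kept the call in all 19 alternatives. With same-numbered MDSC and TAM libraries as a block Cd163, Cd36, Scarb1 and Olr1 lost it (edgeR BH-adjusted p = 0.108, 0.143, 0.0986 and 0.071). Scarb1 also lost it without MDSC Shp2f/f replicate 2 (BH-adjusted p = 0.0523, edgeR), Cd36 with weights per cell type (BH-adjusted p = 0.0789, limma voom), and Olr1 with those weights (BH-adjusted p = 0.0948, limma voom), without MDSC Shp2f/f replicate 2 (BH-adjusted p = 0.112, edgeR) and without TAM Shp2f/fLysMcre replicate 2 (BH-adjusted p = 0.0506, edgeR).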

How the results depend on the processing

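In TAM, Cd36, Cd163, Mrc1, Stab1, Msr1 and Cd68 kept their direction and call in every alternative run, with log2 fold changes between 1.29 and 1.44 for Cd36 and between 0.078 and 0.21 for Cd68, except that Mrc1 was not tested when the 20 most abundant genes were removed. Timd4 kept its call in 4 of 13 alternatives and Olr1 in 10 of 14. One fit of all 10 libraries called 4837 genes in TAM. Total-count scaling shifted all genes, to a median of -0.111 in TAM and -0.184 in the interaction on the log2 scale, split the TAM calls into 2342 higher and 5227 lower and those of the interaction into 1234 and 3132, and gave Scarb1 in TAM a log2 fold change of -0.052.

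MDSC calls depended most on the settings. DESeq2 called 1256 genes and 3 members, no filter on low counts 130 genes and 0 members (6 at an unadjusted p under 0.05 in edgeR), and one fit of all 10 libraries 2666 genes (16.1%) and 7 members, against 633 genes and 1 member as reported. Leaving out 1 library gave 1 to 4406 genes and 0 to 6 members, the 0 being without either Shp2f/f library (1 and 2 members at an unadjusted p under 0.05 in edgeR), and 2446 to 7023 genes in the interaction. Marco and Timd4 in MDSC ranged from -0.165 to 0.481 and from -0.310 to 0.872 across these. The interaction of Mrc1 was 0.0099 with DESeq2, 0.010 with its size factors, 0.0094 without a filter and -0.211 to 0.198 with 1 library left out, and that of Stab1 -0.288 to 0.149. Without MDSC Shp2f/fLysMcre replicate 1 the interactions of Stab1 (-0.288, edgeR BH-adjusted p = 0.0459) and Timd4 (-2.01, edgeR BH-adjusted p = 0.048) passed. The causes were not tested. The related lists were checked in MDSC after seeing the data. Without a filter on low counts no lipid, uptake or other scavenger receptor gene was called, and 0.477% of all genes were. Total-count scaling called 0 of 16 lipid genes, so Dgat1 lost its call. DESeq2 called 3 of 16 lipid genes and 4 of 18 uptake genes, where 8.48% of all genes were called. Without Shp2f/fLysMcre replicate 1 or 2 the median log2 fold change of the lipid genes was -0.087 or -0.022. With the replicate number as a block, 2674 genes (18.1%) and 6 members were called in MDSC, with Scarb1, Mrc1, Stab1, Cd68 and Olr1 added to Msr1, and 6898 genes in TAM. The MDSC libraries of the same number had a correlation of 0.276, but with 2 pairs this does not show a pairing. With same-numbered MDSC and TAM libraries of a genotype as a block, added after seeing the data, the interaction called 970 genes and 2 members, Msr1 and Cd68. Such libraries had correlations of 0.0364 in Shp2f/f and -0.0722 in Shp2f/fLysMcre, so the numbers are not known to mark a mouse. In Shp2f/f TAM against MDSC, all 9 calls held in the 13 alternatives. Depth limits Marco and Timd4, which had at most 15 counts in any TAM library.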
